A study of Mus musculus with 6 samples.

Results

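Of the 10 genes that carry the light response of cone photoreceptors, 9 were measured in adult mouse retina without and with Onecut2, out of 18193 genes that the arrays name by a single symbol. The probe sets were found by the symbols of a named set of genes: the cone opsins Opn1sw and Opn1mw, the cone transducin subunits Gnat2, Gnb3 and Gngt2, the cone phosphodiesterase subunits Pde6c and Pde6h, the cone channel subunits Cnga3 and Cngb3, and cone arrestin, Arr3. Together they had 13 probe sets, the groups of short probes that read a transcript on the array, all of which passed the expression filter, a mean log2 intensity above 7 in either genotype. No probe set carried the symbol Cnga3, so that subunit was not analysed here. Total RNA of whole retina was hybridised to 6 Affymetrix arrays, 3 of OC2-KO mice, germline knockouts that were genotyped by their null Onecut2 alleles, and 3 of OC2-WT littermates. The labels give the stage as adult and name neither a strain, an age in days nor the number of animals behind an array. The p-values thus rest on the variation among these 6 arrays alone, some of which can be technical. Onecut2 is a transcription factor of horizontal cells, the interneurons that receive input from rods and cones and feed back onto their terminals, and the comparison asks what differs in the mature retina when it is lost.

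Cones serve daylight and colour vision. Light turns an opsin into an activator of the G protein transducin, whose alpha subunit releases a phosphodiesterase from its inhibitory subunit. The enzyme then hydrolyses cGMP and cation channels in the outer segment close, until arrestin caps the opsin and ends its signal. Cones and rods run this cascade with separate genes for nearly every step, which allows cone transcripts to be followed in a tissue where most photoreceptors are rods. Most mouse cones hold a mixture of the short and the medium wavelength opsin, with more of the short wavelength pigment towards ventral retina and more of the medium wavelength pigment towards dorsal retina.

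The photoreceptor homeobox factor CRX binds the letters TAATCC or TAATCT, and Onecut factors bind ATTGAT or ATCGAT. Both pairs were searched on either strand in the 250 bases before the RefSeq start site (build GRCm38.p6), and 6 of the 10 genes had such a promoter window, while Gnb3, Gngt2, Pde6c and Cngb3 had none. Shown are both opsins, which the results tell apart, and Arr3, which held the most matches. Capitals mark the matches of either kind, which did not overlap each other. Opn1sw (chr6:29380514-29380763, minus strand), Opn1mw (chrX:74127216-74127465, plus strand) and Arr3 (chrX:100605247-100605496, plus strand) read from 5′ to 3′ as follows.
Opn1sw: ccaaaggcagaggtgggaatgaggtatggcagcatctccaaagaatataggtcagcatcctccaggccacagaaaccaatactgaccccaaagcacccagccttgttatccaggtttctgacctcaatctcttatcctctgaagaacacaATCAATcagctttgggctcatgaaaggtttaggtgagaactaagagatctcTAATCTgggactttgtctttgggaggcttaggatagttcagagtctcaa
Opn1mw: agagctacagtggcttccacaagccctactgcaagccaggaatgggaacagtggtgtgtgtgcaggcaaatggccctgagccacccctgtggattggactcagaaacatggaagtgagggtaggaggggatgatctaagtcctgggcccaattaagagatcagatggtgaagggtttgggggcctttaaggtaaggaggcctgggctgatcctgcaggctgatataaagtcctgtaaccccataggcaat
Arr3: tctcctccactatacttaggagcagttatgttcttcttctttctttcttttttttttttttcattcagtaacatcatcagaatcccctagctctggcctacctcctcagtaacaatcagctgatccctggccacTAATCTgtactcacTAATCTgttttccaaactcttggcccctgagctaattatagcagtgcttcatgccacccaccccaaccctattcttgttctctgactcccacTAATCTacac

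Opn1sw held TAATCT beginning 49 bases before the start site and, 100 bases before it, ATCAAT, which is ATTGAT on the other strand. Arr3 held TAATCT beginning 116, 102 and 10 bases before its start. Gnat2 held GGATTA, which is TAATCC on the other strand, beginning 19 bases before its start. The windows of Opn1mw, Pde6h and Cnga3 held none of these letters. In all, 3 of 7 windows, from 3 of 6 genes, had a CRX match, where 12.8% of all 32851 promoter windows of this length had one, and among the rod counterparts 4 of 6 windows did. A single window of the 7 had an Onecut match, where 7.40% of all windows did, and so did 1 of 6 rod windows. These matches describe letters and not binding, and the arrays do not measure binding.

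Arrays with the same replicate number deviated from their genotype means together, as given with the processing, and are called pairs 1, 2 and 3. The difference in log2 intensity between the 3′ and the 5′ control probe sets of Actb, which grows as RNA is shortened, was 3.39 in OC2-KO and 2.95 in OC2-WT in pair 3, and lay between 0.71 and 1.41 on the other 4 arrays. Xist, the transcript of the inactive X chromosome of females, stood between 13.70 and 14.53 on OC2-KO replicate 2 and on OC2-WT replicates 2 and 3, and between 6.68 and 7.16 on the others, so that pair 3 joins arrays of unlike sex. The 3 Onecut2 probe sets lay between 8.52 and 9.23 in OC2-KO and between 5.28 and 7.01 in OC2-WT, so that every OC2-KO array lay above every OC2-WT array. Per the study these probes lie at the 3′ end of the gene, a stretch left in the knockout, and they do not measure the loss of the protein. Of 5 horizontal cell markers, Lhx1 lay below the filter. The 4 kept had lower means in OC2-KO, with a median log2 difference of -0.66. Of these, 2 (Calb1 and Septin4) passed limma's unadjusted p of 0.05, where 0.326% of all probe sets did so lower in OC2-KO. Onecut1 was as low as 2.82 on OC2-KO replicate 1, and Prox1 was higher in OC2-KO in pair 3, by 0.14. The 3 measured rod markers and the markers of Müller glia were present at log2 means of at least 10.24 in each genotype. Grm6 and Pou4f2 were not analysed here. Of all the marker lists, the lens genes varied most between arrays, with list medians of 0.36, 0.60 and 0.42 on the OC2-KO arrays and of 1.02, -0.20 and -2.01 on the OC2-WT arrays, relative to each gene's mean.

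None of the 13 member probe sets passed the threshold after adjustment, which with 3 arrays in each genotype does not show that they were unchanged. Limma's adjusted p (Benjamini-Hochberg, 21176 probe sets) was 1.00 for each of them, and 0 probe sets of the whole table were called (0%). The methods' t-test and the fit with the replicate block likewise called 0, and the block together with an intensity trend called 6 (0.0283%), none of them a member. At an unadjusted p of 0.05, limma counted 3 member probe sets, those of Gnb3, Gngt2 and Pde6c, all higher in OC2-KO, where 209 of all probe sets (0.987%) passed in either direction and 0.661% were higher. With the replicate block the same 3 passed that threshold, where 4.19% of all did so in either direction and 2.09% were higher. With the block and an intensity trend 4 members passed it, where 3.68% of all did: Gnb3, Pde6c and both probe sets of Pde6h, but not Gngt2. The methods' t-test counted 2, Gnb3 and Gngt2, where 300 of all (1.42%) passed. The genotypes did not overlap on these 2 members, both higher in OC2-KO, where 3.28% of all probe sets showed no overlap, 1.72% higher and 1.56% lower. The mean difference was above 0 for 11 of 13 member probe sets, where 48.1% of all probe sets were above 0, and 8 of 13 were higher in 3 of 3 pairs, where 10.3% of all were. The median log2 difference over the members was 0.23, beside -0.01 over all probe sets kept. Several of the probe sets read the same transcript and are not independent. The count of 3 at limma's unadjusted threshold became 0 when dim probe sets were not filtered, 1 with median centring, 0 without OC2-KO replicate 2, without OC2-KO replicate 3, without OC2-WT replicate 2 or without pair 3, and 1 without replicate 1 of either genotype. The median was 0.10 without OC2-WT replicate 2 or OC2-WT replicate 1, 0.12 without OC2-KO replicate 3, 0.39 without OC2-KO replicate 2 and 0.37 without OC2-WT replicate 3.

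**Figure D1:**
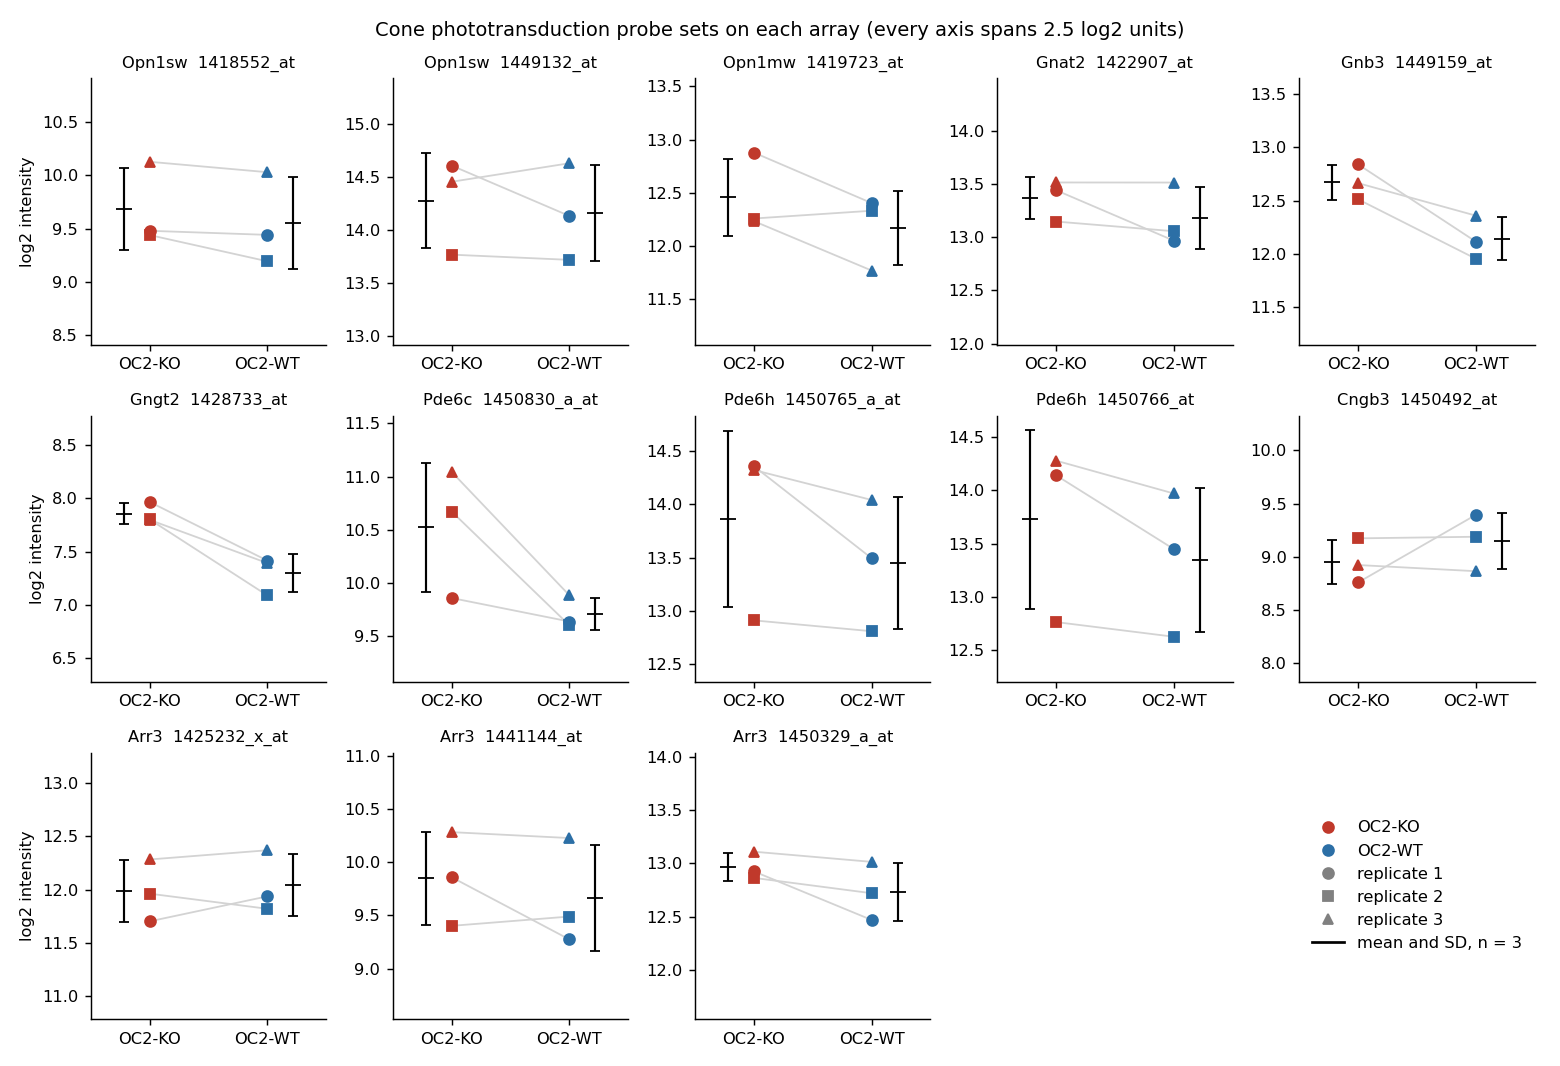
Log2 intensity (vertical axis) of the 13 member probe sets on each array, by genotype (horizontal axis). Points are arrays, with a symbol for each replicate number, grey lines connect the arrays of a pair, and the bars drawn in black are the mean and SD (n = 3). Every panel spans 2.5 log2 units. In the panels of Gnb3 and Gngt2 all OC2-KO points lie above all OC2-WT points.

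Opn1sw, the short wavelength opsin, was read by a pair of probe sets. On 1449132_at its log2 intensity was 14.60, 13.77 and 14.45 in OC2-KO replicates 1, 2 and 3, against 14.13, 13.72 and 14.63 in OC2-WT. The genotypes overlapped throughout, and the arrays of pair 2 were the lowest in either genotype. The difference was 0.12 ± 0.33 (SE), with a 95% interval from -0.67 to 0.90. On the dimmer 1418552_at the values were 9.48, 9.44 and 10.13 in OC2-KO, against 9.44, 9.19 and 10.03 in OC2-WT, a difference of 0.13 ± 0.31 (SE). This probe set was higher in OC2-KO in 3 of 3 pairs by 0.04 to 0.25, while the brighter one differed by 0.47, 0.05 and -0.17 in pairs 1, 2 and 3. Quantile normalization turned the sign of 1449132_at, to -0.03.

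Opn1mw, the medium wavelength opsin, stood at 12.88, 12.26 and 12.23 on 1419723_at in OC2-KO, against 12.40, 12.33 and 11.77 in OC2-WT. The OC2-WT array of pair 3 was the lowest and the OC2-KO array of pair 1 the highest, and the genotypes overlapped. The difference was 0.29 ± 0.29 (SE), with a 95% interval from -0.39 to 0.96. It was 0.47 in pair 1, -0.07 in pair 2 and 0.46 in pair 3. Opn1mw is X-linked, and without pair 3, whose arrays differ in Xist, the difference was 0.20. It was 0.08 without OC2-KO replicate 1 and 0.09 without OC2-WT replicate 3.

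Whether the genotype difference was the same for both opsins was asked by subtracting Opn1mw from Opn1sw (1449132_at) on each array. The size of this value depends on the probes and only its difference between genotypes was read. It averaged 1.82 ± 0.36 in OC2-KO and 1.99 ± 0.77 in OC2-WT (SD, n = 3 each), a difference of -0.17 (p = 0.8 by a two-sided exact permutation test, which cannot go below 0.1). By pair the difference was -0.001, 0.12 and -0.64, and flipping signs within pairs gave an exact two-sided p of 0.75 (at least 0.25 in this design). Without OC2-WT replicate 3 it was 0.26, and without pair 3 it was 0.06, so its sign rested on that array. A shift in the balance of short and medium wavelength opsin was not detectable with 3 arrays in each genotype, and these tests could not have passed 0.05.

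**Figure D2:**
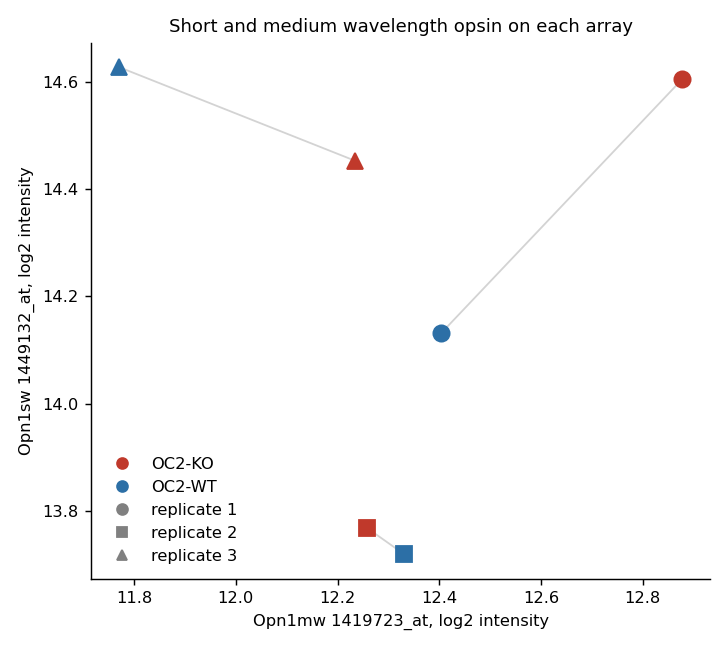
Log2 intensity of the short wavelength opsin Opn1sw (vertical axis) against that of the medium wavelength opsin Opn1mw (horizontal axis), with 1 point for each array, colours for genotype and grey lines joining arrays of the same number. The arrays of pair 2 lie close together, pair 1 moves up on both axes towards OC2-KO, and in pair 3 the OC2-WT array has the lowest Opn1mw value, 11.77, and the highest Opn1sw value, 14.63.

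Among the transducin subunits, the alpha subunit gene Gnat2, which activates the phosphodiesterase, had the smallest difference. Its log2 intensity on 1422907_at was 13.44, 13.15 and 13.51 in OC2-KO, against 12.97, 13.06 and 13.51 in OC2-WT, and the genotypes overlapped, with the arrays of pair 3 nearly equal. The difference was 0.19 ± 0.24 (SE), with a 95% interval from -0.38 to 0.75. Its rod counterpart Gnat1 differed by 0.12.

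Gnb3, the beta subunit gene, stood at 12.84, 12.51 and 12.66 on 1449159_at in OC2-KO, against 12.11, 11.95 and 12.36 in OC2-WT. Every OC2-KO array lay above every OC2-WT array. The difference was 0.53 ± 0.22 (SE), a 1.44-fold higher geometric mean intensity, with limma's unadjusted p at 0.0446 and adjusted p at 1.00. It was 0.73, 0.56 and 0.31 in pairs 1, 2 and 3, and between 0.44 and 0.64 over all alternatives. ON bipolar cells also use Gnb3. Of the 3 measured bipolar markers, Trpm1 differed by 0.08, Prkca by -0.31 and Cabp5 by -0.57, and the part of these cells in the Gnb3 value was not tested. By in situ hybridization the study saw no significant difference for Gnb3 in embryonic retina without Onecut2, a stage not measured here.

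Gngt2, the gamma subunit gene that anchors the beta subunit to the membrane, was the dimmest member. It stood at 7.97, 7.80 and 7.80 on 1428733_at in OC2-KO, against 7.41, 7.09 and 7.39 in OC2-WT, and its genotypes did not overlap. The difference was 0.56 ± 0.21 (SE), a 1.47-fold higher geometric mean intensity, with limma's unadjusted p at 0.0300 and adjusted p at 1.00. It was 0.55, 0.71 and 0.41 by pair. Under the block plus an intensity trend, limma's unadjusted p was 0.0633 (adjusted p 1.00). The stricter filter at 8 removed this gene, and its fold is uncertain so near the lower end of the scale. The rod counterparts Gnb1 and Gngt1 differed by 0.23 and 0.29, with values of -0.11 and -0.05 in pair 2.

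Pde6c, the catalytic subunit gene of the cone phosphodiesterase, had the largest difference of any member. Its log2 intensity on 1450830_a_at was 9.86, 10.67 and 11.04 in OC2-KO, against 9.64, 9.60 and 9.89 in OC2-WT. The OC2-KO array of pair 1 lay just below the OC2-WT array of pair 3, so that the genotypes overlapped narrowly, and the spread was wider in OC2-KO (SD 0.61) than in OC2-WT (SD 0.15). The difference was 0.82 ± 0.33 (SE), a 1.76-fold higher geometric mean intensity, with limma's unadjusted p at 0.0407 and adjusted p at 1.00. The methods' t-test gave an unadjusted p of 0.0863. It was 0.22, 1.07 and 1.16 by pair, 1.15 without OC2-KO replicate 1 and 0.56 without OC2-KO replicate 3. The rod catalytic genes Pde6a and Pde6b differed by 0.003 and 0.08. Per the study, cone markers, among them Gnat2 and Pde6c, looked normal in retina without Onecut2. Its in situ hybridization of adult sections showed no significant difference in cones.

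Pde6h, the inhibitory subunit gene, gave nearly the same picture on its probe sets. On 1450765_a_at it stood at 14.36, 12.91 and 14.32 in OC2-KO, against 13.49, 12.81 and 14.04 in OC2-WT. The arrays of pair 2 were the lowest in either genotype, and the genotypes overlapped. The difference was 0.42 ± 0.48 (SE), with a 95% interval from -0.72 to 1.55, and 1450766_at differed by 0.38. Both were higher in OC2-KO in 3 of 3 pairs, by 0.10 to 0.87 and by 0.14 to 0.69. With the replicate block the SE of 1450765_a_at was 0.20 and its unadjusted p 0.0906 in limma (adjusted p 1.00). With an intensity trend added, limma's unadjusted p was 0.0486 on 1450765_a_at and 0.0453 on 1450766_at (adjusted p 1.00 for both). The rod inhibitory subunit gene Pde6g differed by 0.02.

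Cngb3, the beta subunit gene of the cone cation channel, was the only gene whose mean was lower in OC2-KO on all its probe sets. It stood at 8.76, 9.17 and 8.92 on 1450492_at in OC2-KO, against 9.39, 9.19 and 8.87 in OC2-WT. Pair 1 alone carried the difference, with -0.63, while pairs 2 and 3 differed by -0.02 and 0.06. The mean difference was -0.20 ± 0.24 (SE), with a 95% interval from -0.75 to 0.36. The rod channel genes Cnga1 and Cngb1 differed by 0.01 and -0.06.

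Arr3, cone arrestin, was read by 3 probe sets that did not move as a unit. On the brightest, 1450329_a_at, it stood at 12.92, 12.86 and 13.11 in OC2-KO, against 12.47, 12.72 and 13.01 in OC2-WT, higher in 3 of 3 pairs with a difference of 0.23 ± 0.23 (SE). Probe set 1441144_at differed by 0.18 ± 0.34 (SE) and was higher in 2 of 3 pairs. Probe set 1425232_x_at, whose suffix marks a design in which some probes also match other sequences, differed by -0.06 ± 0.26 (SE) and by -0.23, 0.14 and -0.09 in pairs 1, 2 and 3. With array weights this last value turned to 0.11. The genotypes overlapped on all 3, and the rod arrestin gene Sag differed by 0.11. Arr3 is X-linked, as Opn1mw is. Without pair 3, whose arrays differ in Xist, its differences were 0.30 on 1450329_a_at, 0.25 on 1441144_at and -0.05 on 1425232_x_at.

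**Figure D3:**
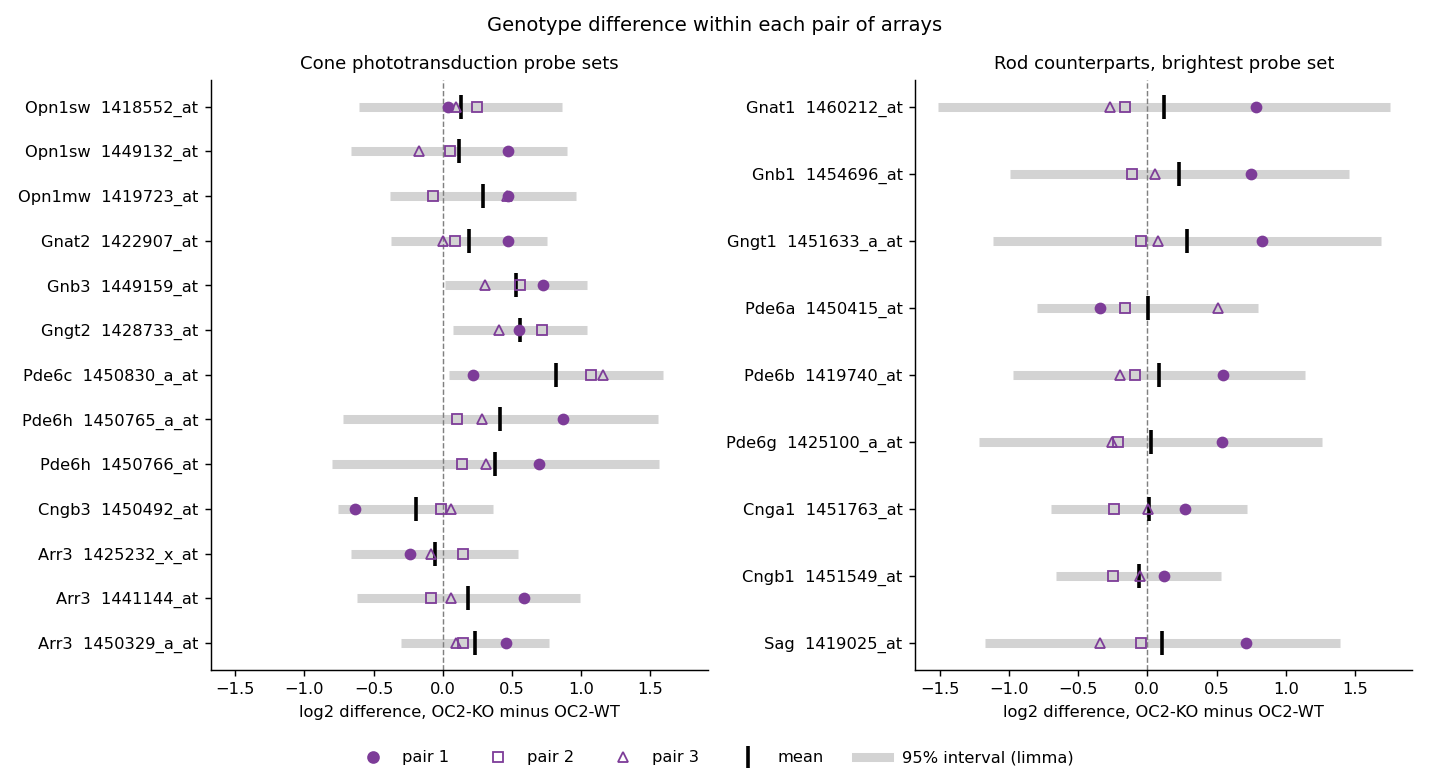
Log2 difference, OC2-KO minus OC2-WT (horizontal axis), of the 13 member probe sets (left) and of the brightest probe set of 9 rod counterparts (right). Symbols are the 3 pairs, black bars the mean, and grey bands limma's 95% interval. The bands of Gnb3, Gngt2 and Pde6c lie above 0 before adjustment, and the filled pair 1 symbols lie furthest right for 8 of 9 rod genes.

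The cone and rod genes were set beside each other within pairs, with each gene at its brightest probe set. The median cone difference was 0.47, 0.10 and 0.28 in pairs 1, 2 and 3, and the median rod difference was 0.55, -0.16 and -0.05. In pair 1 both groups of photoreceptor genes stood higher in OC2-KO by a like amount, and in pairs 2 and 3 the rod median was slightly below 0 while the cone median was above it. Over all probe sets kept the medians were -0.02, -0.005 and -0.005. Of 9 measured rod counterparts, 8 had a mean above 0, where 48.1% of all probe sets did. None passed the unadjusted threshold, with differences from -0.06 to 0.29. None of them was higher or lower in 3 of 3 pairs, beside 6 of 9 cone genes higher in 3 of 3 pairs. Over all probe sets kept, 10.3% were higher and 12.4% lower in 3 of 3 pairs. Genes of a list can shift together on an array, so these shares give no expected count for 9 genes. The difference between the lists was not tested, since the members were chosen with results known. In RNA of a whole tissue, a change in the number of cells of a type and a change in RNA per cell cannot be told apart.

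The arrays within each genotype also differed from each other in photoreceptor signal. Relative to each gene's mean over 6 arrays, the rod median was 0.36, -0.81 and 0.60 on the OC2-KO arrays, against -0.26, -0.62 and 0.74 on the OC2-WT arrays, lowest in pair 2 and highest in pair 3. The cone median was 0.39, 0.01 and 0.24 on the OC2-KO arrays, against -0.16, -0.45 and -0.05 on the OC2-WT arrays. Each OC2-KO array lay above each OC2-WT array, but narrowly, with OC2-KO replicate 2 at 0.01 and OC2-WT replicate 3 at -0.05. This separation was not tested, since the members were chosen with results known. The range of a gene over the arrays had a median of 0.91 over member probe sets and 1.60 over rod counterparts. Pde6h spanned 1.65 on 1450766_at and Gnat2 the least, 0.55. The part of the pair 3 RNA quality and of lens or pigment epithelium tissue in these values was not tested. The pigment epithelium list had a median difference of -0.70, 0.14 and -0.29 in pairs 1, 2 and 3, and the lens list one of -0.55, 0.81 and 2.66, with Mip at 0.89 on OC2-WT replicate 3.

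**Figure D4:**
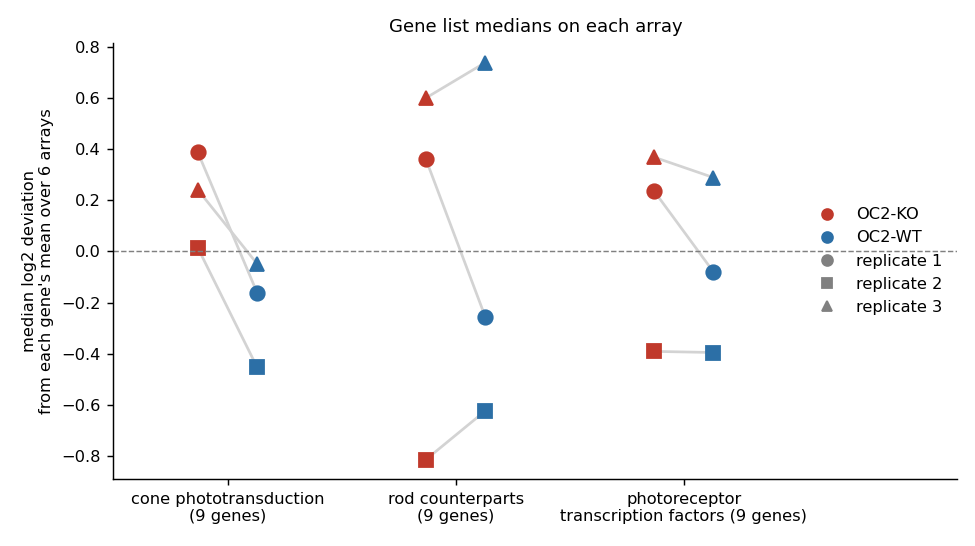
Median log2 deviation from each gene's mean over 6 arrays (vertical axis) for the cone phototransduction genes, their rod counterparts and photoreceptor transcription factors (horizontal axis), with 1 point for each array, colours for genotype and grey lines joining arrays of the same number. The cone medians of the OC2-KO arrays run from 0.01 to 0.39 and lie above those of the OC2-WT arrays, from -0.45 to -0.05. This separation was not tested, since the members were chosen with results known. The rod medians of the genotypes overlap.

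Further genes of phototransduction and recovery, most of which serve rods and cones alike, did not move together. Of 9 measured genes of this list, 4 had a mean above 0 and 5 below, where 48.1% of all probe sets were above 0. The median log2 difference was -0.01, and none passed the unadjusted threshold. Grk1, the kinase that marks activated opsin for arrestin, stood at 10.13, 9.98 and 9.41 in OC2-KO, against 11.11, 11.02 and 9.86 in OC2-WT. It was lower in 3 of 3 pairs by 0.98, 1.03 and 0.45, with a mean difference of -0.82 ± 0.39 (SE; limma, unadjusted p 0.0717, adjusted p 1.00), and the OC2-WT array of pair 3 lay below the OC2-KO arrays of pairs 1 and 2. With the replicate block its unadjusted p was 0.00548 and its adjusted p 1.00. Rgs9 and Gnb5, which speed the shut-off of transducin, differed by -0.09 and -0.11, and the calcium sensor gene Rcvrn by 0.19. Gucy2e did not pass the filter, and Gucy2f was not analysed here.

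Transcription factors of photoreceptors had differences on either side of 0. Of 9 measured genes 7 had a mean above 0, where 48.1% of all probe sets did, with a median log2 difference of 0.06. In 3 of 3 pairs 2 were higher, where 10.3% of all probe sets were. Rxrg, a retinoid receptor gene that cones use to hold back short wavelength opsin, stood at 8.34, 8.02 and 8.08 in OC2-KO, against 8.15, 7.44 and 7.78 in OC2-WT, a difference of 0.36 ± 0.25 (SE). Neurod1 was the other, at 0.24 ± 0.31 (SE), and Rorb and Prdm1 differed by 0.14 and -0.08. Thrb, the thyroid hormone receptor gene that cones need for medium wavelength opsin, and Sall3 lay below the filter, and Nr2e3 was not analysed here. By qPCR the study found Thrb at normal levels in embryonic retina without Onecut2. Of the 4 other cone or photoreceptor membrane genes measured, Slc24a2, the cone sodium, calcium and potassium exchanger, was lower in 3 of 3 pairs by a mean difference of -0.19 ± 0.20 (SE), and Kcne2, Ccdc136 and Kcnv2 differed by 0.12, 0.05 and -0.02. None of these genes passed limma's unadjusted threshold.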

How the data were processed

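Retina RNA of 3 OC2-KO and 3 OC2-WT samples was amplified, labelled with biotin and hybridised to Affymetrix mouse genome arrays, 1 array per sample. The deposited values are linear intensities, which the authors background-adjusted and normalized with MAS5 (version not given in the sources used here) and scaled to a 2% trimmed mean of 500. A difference shared by all genes can therefore not be seen, and precision is limited by having 3 arrays in each genotype.

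Groups and replicate numbers came from the sample titles. Of 45101 probe sets, 64 controls were left out, and names came from the platform annotation (34945 probe sets with 1 symbol, 932 with several, which were not used, and 9160 with none). Log2 intensities were filtered at a genotype mean above 7, as in the study's methods, which kept 21176. Differences came from limma 3.58.1 (lmFit, then eBayes; R 4.3.3), two-sided, with Benjamini-Hochberg adjustment over all probe sets kept and a threshold of 0.05. The study used a plain t-test, which was run as an alternative. The opsin balance was tested by exact permutation. The code was tested on simulated data.

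All member probe sets are described. Other lists were rod counterparts, further phototransduction and recovery genes, photoreceptor transcription factors, other cone genes and cell type markers. They hold each gene at its brightest probe set, with up to 4 genes named by smallest p, beside the rod counterparts. Members and lists were chosen with earlier results of these data known.

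Arrays of the same number correlated in their deviations from the genotype means at 0.576, 0.590 and 0.585, so arrays were taken as paired by number. Arrays of different numbers correlated at -0.429 to -0.135. Deviations from a mean of 3 arrays sum to 0, so these negative signs follow in part from the positive values and add little. The pairing rests on the correlations, since the study speaks of littermates and the labels tie no number to a litter. Alternatives were a filter at 8 or none, median centring, quantile normalization, array weights, an intensity trend, the replicate block with and without that trend, a floor at 6, the t-test, and leaving out each array or pair 3.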

Additional observations from a re-analysis of the deposited data

How the results depend on the processing

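The sign of a member difference turned for Opn1sw 1449132_at with quantile normalization (-0.033) and for Arr3 1425232_x_at with array weights (0.11). Leaving out 1 array gave -0.10 to 0.37 for Opn1sw on either probe set, -0.21 to 0.10 for Arr3 1425232_x_at and -0.033 to 0.47 for Arr3 1441144_at. No member passed adjustment under any alternative, and the adjusted p ran from 0.878 to 1.00 in limma and the t-test. The count of probe sets called was 0 throughout, also without each array, except for 6 when the replicate block was joined by an intensity trend. The count of members at an unadjusted p of 0.05 was 0 without the filter, 1 with median centring, 0 without pair 3 and 0 to 2 without 1 array. The cause was not tested. It was 3 with the replicate block alone, the same members, and 4 when the trend was added, with both Pde6h probe sets in and Gngt2 out. The median member difference ran from 0.10 to 0.39 without 1 array and from 0.20 to 0.29 otherwise. The opsin balance was 0.060 without pair 3 and -0.47 to 0.26 without 1 array. With 3 arrays in each genotype and a median SE of 0.29 over the members, 10 of 13 member differences had a 95% interval that held 0 before adjustment.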
